A study of Homo sapiens with 16 samples.

Results

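The nuclear genes of oxidative phosphorylation were taken by name, as the protein-coding genes of GENCODE release 44 whose symbols begin with NDUFA, NDUFB, NDUFC, NDUFS, NDUFV, UQCR, COX4I, COX5, COX6, COX7, COX8 or ATP5, together with SDHA to SDHD. The rule gave 98 genes and used no measured value. Of the 74404 genomic intervals in the deposited count table, 117 lay within 1 kb of a transcript start of 90 of these genes, and these 117 promoter intervals are described here across all 4 CUT&Tag targets. They were compared with the 20364 other intervals that lay as close to a start of a protein-coding gene.

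Oxidative phosphorylation is carried out in the inner mitochondrial membrane. Complex I takes electrons from NADH and complex II from succinate, complex III passes them to cytochrome c, complex IV hands them to oxygen, and ATP synthase uses the resulting proton gradient to make ATP. A few subunits are encoded by mitochondrial DNA, and the genes described here are the nuclear ones. Their promoters are known for binding NRF1 and the ETS-family factor GABP, which coordinate nuclear respiratory genes. CTCF is a zinc finger protein that binds DNA directly and halts cohesin, RAD21 is a subunit of the cohesin ring, YAP1 is a transcriptional coactivator of the Hippo pathway, and H3K27ac is a histone mark of active promoters and enhancers.

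The cells were HEK293, an established human embryonic kidney line, and every group carried the genotype eGFP-YAP. After 1 h without serum, cells were given either 200 mM sorbitol for 1 h, a hyperosmotic treatment, or vehicle. CUT&Tag, in which an antibody directs the Tn5 transposase to cut and tag nearby DNA, was run with antibodies to CTCF, RAD21, H3K27ac or GFP, the last reading the tagged YAP1. The 16 libraries formed 8 groups, vehicle and sorbitol for each target, with 2 libraries each. The table's column names mark the vehicle libraries as 0 h, so treatment and time in culture cannot be told apart. The labels do not say that the replicates came from separate cultures, so the p-values measure only the spread between these libraries, which may be technical.

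Sequences that carry the rule's genes are shown first, because all of the comparisons concern the DNA at their starts. In the central 500 bp of the intervals, the 9-letter NRF1 motif GCGCATGCG, searched on both strands, was found in 10 of 117 intervals (8.55%) and in 1.72% of all protein-coding promoter intervals. The ETS motif CCGGAAG was found in 23.9% against 13.1%, CCAAT in 42.7% against 34.96%, GGGCGG in 65.8% against 67.5%, and TGACGTCA in 2.56% against 1.61%. No motif contains another. Where the NRF1 motif overlaps its own reverse complement, the pair is printed as 1 site. The share with the NRF1 motif was 5.00% at the 100 promoter intervals of mitochondrial ribosomal protein genes and 0.855% at the 117 of cytosolic ribosomal protein genes. For the ETS motif these shares were 30.0% and 20.5%, so the mitochondrial ribosomal protein genes stood above the members. Among intervals holding a start, the NRF1 motif was in 10.3% of members and 2.275% of other promoter intervals. The ETS motif was in 28.9% and 16.3% of them. A match is a description of the letters and not a bound site. The matches are printed 5′ to 3′ along each gene's strand (hg38), with the motif in capitals, for a complex I to ATP synthase series of genes that recur in the results.
NDUFS7, chr19:1383823-1383851: ttccggtttcCGCATGCGCtccgagccgc
NDUFS8, chr11:68030893-68030922: ggctctcaggGCGCATGCGCcgcccgctct
SDHD, chr11:112086753-112086782: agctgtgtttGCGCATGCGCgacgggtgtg
UQCRC2, chr16:21953015-21953043: atcccggaggGCGCATGCGgagtcccaag
ATP5F1C, chr10:7788145-7788174: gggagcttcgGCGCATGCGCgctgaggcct
ATP5PF, chr21:25735156-25735184: cactcaaagaGCGCATGCGtacagagcaa

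The CTCF consensus, allowing 1 mismatch, was found in the central 500 bp of 5.98% of the intervals and of 9.06% of all protein-coding promoter intervals. Among intervals holding a start, the shares were close, at 6.19% of members and 6.31% of other promoter intervals. Over the whole interval, 3 members held the consensus without a mismatch, and their matches are shown in capitals because CTCF is the target with the largest single changes.
NDUFB6, chr9:32572449-32572478: gtatccaaCCACCAGAGGGCACagccagcc
ATP5F1D interval 2, chr19:1244544-1244573: caaggaggCCACCAGAGGGCAGtgcaggct
COX6A1 interval 2, chr12:120439830-120439859: gcctgtacCCACTAGGTGGCAGtagtacct

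RefSeq promoter sequences (hg38) were available for 78 of the 98 genes, and in the 250 bases before the start the ETS motif was present in 23.1% of them and in 8.82% of all RefSeq promoters of that length. The 3 below are shown because their intervals changed with sorbitol, NDUFAF4 and NDUFB7 in CTCF and SDHB in YAP1. The capitals mark the ETS motif.
NDUFAF4, chr6:96897892-96898141, minus strand: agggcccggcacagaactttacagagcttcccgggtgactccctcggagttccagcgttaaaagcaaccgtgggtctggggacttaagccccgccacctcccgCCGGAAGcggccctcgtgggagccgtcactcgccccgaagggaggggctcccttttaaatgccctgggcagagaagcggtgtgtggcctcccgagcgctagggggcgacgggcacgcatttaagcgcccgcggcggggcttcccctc
NDUFB7, chr19:14572067-14572316, minus strand: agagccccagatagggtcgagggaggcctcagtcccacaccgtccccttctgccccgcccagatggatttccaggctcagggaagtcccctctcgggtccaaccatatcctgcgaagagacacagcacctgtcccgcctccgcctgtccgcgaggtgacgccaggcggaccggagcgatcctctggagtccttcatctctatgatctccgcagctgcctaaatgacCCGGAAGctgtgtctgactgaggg
SDHB, chr1:17054033-17054282, minus strand: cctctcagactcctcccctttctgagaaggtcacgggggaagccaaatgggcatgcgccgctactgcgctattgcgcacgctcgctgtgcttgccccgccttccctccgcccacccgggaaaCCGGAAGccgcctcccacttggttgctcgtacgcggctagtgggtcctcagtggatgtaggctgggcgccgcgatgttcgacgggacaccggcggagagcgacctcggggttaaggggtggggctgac

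The 90 genes with an interval covered every complex. All 38 genes of complex I subunits had one, as did all 8 complex I assembly factors (the NDUFAF genes) and all 4 genes of complex II. The share was 8 of 9 genes for complex III, 13 of 19 for complex IV and 19 of 20 for ATP synthase. These gene counts include the readthrough genes NDUFC2-KCTD14 and ATP5MF-PTCD1, which share the intervals of NDUFC2 and ATP5MF and are not separate subunits. The 8 genes without an interval were UQCRHL, COX7B2, NDUFA4L2, COX8C, COX6A2, COX7A1, COX4I2 and ATP5MGL, and all 8 belong to a list of 9 tissue-restricted isoforms and retrocopies. The ninth, COX6B2, known as a testis isoform of a complex IV subunit, had 1 interval, in a coding exon 71 bp from an annotated start.

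The genes had 1 interval in 67 cases, 2 in 20 and at least 3 in 3. Where a gene had several, the one nearest its main start goes by the gene's name and the others by their number along the chromosome. Of the 117 intervals, 97 held a start and 20 lay beside one. Also within 1 kb of the start of a protein-coding gene outside the rule lay 52, so their counts belong to both genes. The median width was 1186 bp. The median GC content was 58.5%, against 62.8% for the other protein-coding promoter intervals.

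Library totals ran from 1.19 to 8.84 M counts (M, 1000000 counts), and RAD21 was the shallowest target (1.19 to 2.30 M). All 6 genes listed as markers of HEK293 had a promoter interval and 2 of the 6 listed for other cell types did. The share of a library's counts on the mitochondrial genome moved with treatment, from 15.7% to 20.0% in the CTCF vehicle libraries to 32.8% to 33.9% with sorbitol, and in YAP1 from 36.5% to 38.1% to 55.4% to 57.8%. In H3K27ac it was between 1.96% and 2.08% in all 4 libraries. Values below are counts per 1000000 (CPM) after TMM scaling, a scaling by the trimmed mean of log ratios, and the part of the mitochondrial share in them was not tested.

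H3K27ac was the target in which the promoters of respiratory genes stood highest. The median vehicle level was 43.1 CPM per kb for members against 28.6 for the other protein-coding promoter intervals, and 50 of the 117 members lay in the top 25% of all such intervals and 2 in the bottom 25%. For comparison, the median was 60.8 CPM per kb at cytosolic and 41.1 at mitochondrial ribosomal protein genes. By complex, the medians were 56.3 CPM per kb for complex III, 52.5 for ATP synthase, 43.9 for complex I subunits, 41.6 for complex II, 34.4 for complex IV and 34.1 for complex I assembly factors. YAP1 levels were also above those of other promoters, at a median of 8.01 against 5.99 CPM per kb, with 42 members in the top 25% and 13 in the bottom 25%. This was not particular to respiratory genes, since the YAP1 median was 8.20 CPM per kb at cytosolic and 8.16 at mitochondrial ribosomal protein genes. For CTCF the medians of members and other promoters were 5.59 and 5.73 CPM per kb, and for RAD21 7.53 and 7.63. The differences in level were not tested.

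**Figure D1:**
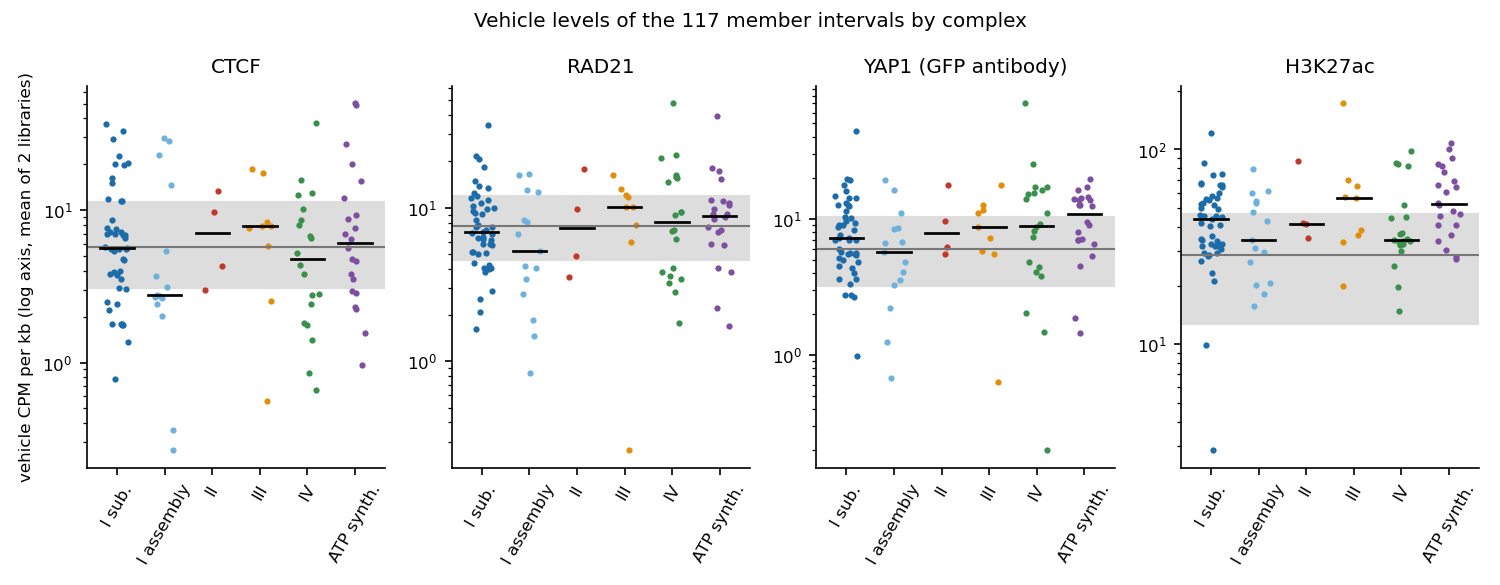
Vehicle CPM per kb (log axis, mean of 2 libraries) of the 117 intervals by complex, 1 panel per target; values under 0.2 are drawn at 0.2. Points are intervals, black lines the medians of each complex, and the grey line and band the median and quartiles of the other protein-coding promoter intervals; only in H3K27ac do all 6 complex medians lie above the grey line of 28.6.

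The highest H3K27ac level was at UQCRH, the hinge subunit of complex III, whose interval of 2517 bp is shared with the start of LRRC41. It had 436.5 and 432 CPM with vehicle and 335 and 358 CPM with sorbitol, or 172.5 CPM per kb with vehicle. NDUFB2, an accessory subunit of complex I, followed with 122 CPM per kb. The 2 lowest tested were NDUFAB1 interval 2 (9.89 CPM per kb) and COX7A2L interval 4 (14.8 CPM per kb), which lie outside the gene and in an intron. In CTCF the highest levels were at ATP5F1D interval 2 (50.2 CPM per kb) and ATP5MC2 (48.8 CPM per kb), for the delta subunit and a c subunit of ATP synthase. In RAD21 and YAP1 the highest was the same interval, COX7A2L interval 1 (47.8 and 70.1 CPM per kb), followed by ATP5F1D interval 2 in RAD21 (39.5 CPM per kb) and NDUFA11 in YAP1 (44.3 CPM per kb).

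At the other end, the lowest tested levels were at NDUFS5 and NDUFC2 in CTCF (1.75 and 1.78 CPM per kb), at NDUFB1 and NDUFA3 in RAD21 (3.83 and 3.98 CPM per kb), and at NDUFB11 interval 2 and NDUFA9 in YAP1 (2.76 and 2.77 CPM per kb). These all belong to complex I subunit genes, and each rests on 2 to 22 counts per library in its target.

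Responses to sorbitol were tested in each target with edgeR's quasi-likelihood test over all intervals with enough counts, and a member is said to have risen or fallen where its Benjamini-Hochberg adjusted p over all those intervals was under 0.05. Fold changes are log2 of sorbitol over vehicle with their standard error (SE). In CTCF, 30 of the 91 tested members rose and 6 fell. The background was close to this: 30.5% of the 14632 other promoter intervals tested were called higher and 8.78% lower, and the median log2 fold change was 0.48 in both sets. Over all 39261 intervals tested for CTCF, 40.2% were called, 19.5% higher and 20.7% lower. The share of members called, 39.6%, was near that of other promoters, 39.2%. At cytosolic ribosomal protein genes 50 of 94 rose, 2 fell and the median was 0.80, and at mitochondrial ribosomal protein genes 24 of 82 rose, 9 fell and the median was 0.48. The differences between these lists were not tested.

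These CTCF calls were sensitive to scaling. Scaled to total counts, which lowers the median of all intervals from -0.06 to -1.04, 5 members were called higher and 26 lower, and with GC-corrected offsets the split was 18 and 10. The difference in medians, members minus other promoters, was 0.0004 as reported and 0.3713 with GC-corrected offsets (0.2988 with a replicate block added), so that the nearness of the members to other promoters depended on that correction. Without the second CTCF vehicle library 18 were called higher. Of the 30 rises and 6 falls, 4 and 4 were called in every alternative run, and the 4 rises were NDUFAF3 interval 1, COX6B2, NDUFA11 and ATP5PD.

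**Figure D2:**
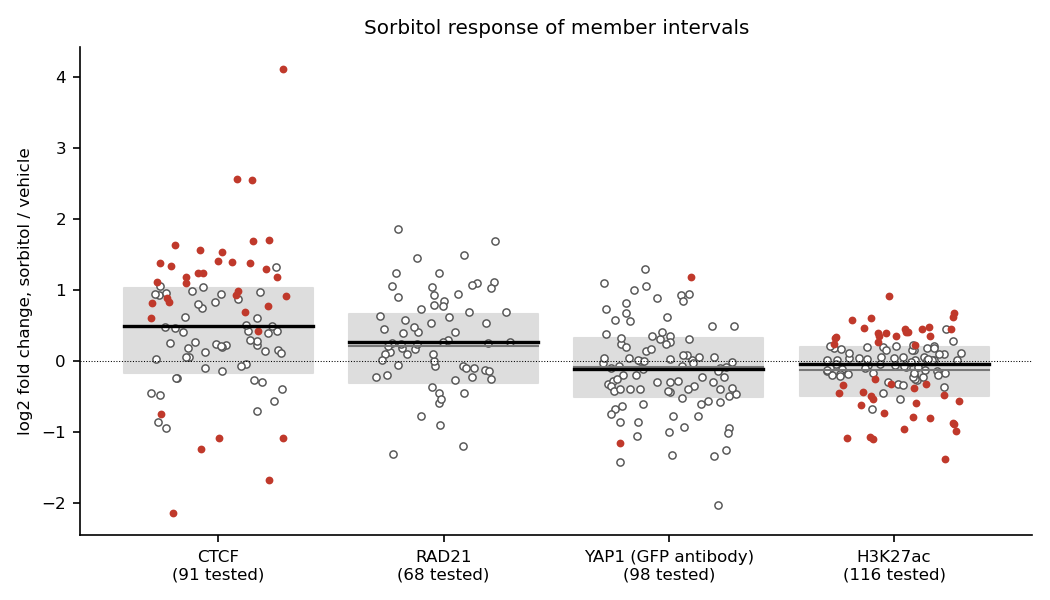
Log2 fold change, sorbitol over vehicle, of the member intervals tested in each target. Red points had an adjusted p under 0.05 and open points did not, black lines are member medians, and grey bands and lines are the quartiles and median of the other protein-coding promoter intervals; members spread most in CTCF, from -2.14 to 4.11, and no RAD21 point is red.

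Several core subunits of complex I were among the risers in CTCF, where 30.5% of other promoter intervals were called higher. NDUFS1, NDUFS3, NDUFS7, NDUFS8 and NDUFV1 rose, while NDUFV2 (0.05 ± 0.49 SE) was not called. NDUFS8, an iron-sulphur subunit, had 7.61 and 9.46 CPM with vehicle and 26.4 and 26.0 CPM with sorbitol. NDUFS7, which holds the last iron-sulphur cluster before ubiquinone, had 10.4 and 7.81 CPM against 31.6 and 23.1 CPM. For both genes every sorbitol library lay above both vehicle libraries. The log2 fold changes were 1.63 ± 0.28 (edgeR adjusted p = 0.000106) and 1.56 ± 0.28 (edgeR adjusted p = 0.000189). The NDUFS7 call was lost only when scaled to total counts. The NDUFS8 call was not made in every other alternative run.

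NDUFS1, the 75 kDa iron-sulphur subunit, shares its interval with EEF1B2. It rose by 1.33 ± 0.37 (edgeR adjusted p = 0.00692), from 7.14 and 5.20 CPM to 11.4 and 20.1 CPM. NDUFS3, which shares its interval with KBTBD4, rose by 1.54 ± 0.43, from 3.88 and 5.20 CPM to 7.76 and 18.1 CPM. In both genes the second sorbitol library was the higher, and the calls were lost without it (log2 fold changes 0.86 and 0.80). The NDUFS1 call was also lost without the second vehicle library (1.13), and the NDUFS3 call without the first (1.29). NDUFV1, which holds the NADH-binding site, rose by 0.93 ± 0.25, from 13.5 and 13.96 CPM to 23.8 and 28.5 CPM, and its call was lost without the first vehicle library (adjusted p = 0.0567).

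Among the accessory subunits of complex I, NDUFA11, NDUFA2, NDUFB10 and both NDUFV3 intervals rose in CTCF and NDUFB2, NDUFB6 and NDUFB7 fell. NDUFA11 had 35.5 and 42.3 CPM with vehicle and 101 and 148 CPM with sorbitol, in an interval that also holds the start of VMAC (log2 fold change 1.69 ± 0.17, edgeR adjusted p = 4.38e-08). NDUFB6, whose exact CTCF consensus match is printed above, moved the other way. It had 18.3 and 19.2 CPM with vehicle and 5.69 and 5.89 CPM with sorbitol, with no overlap, and fell by 1.69 on the log2 scale (SE 0.34, edgeR adjusted p = 0.000543). NDUFB2 and NDUFB7 both fell by 1.09.

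The assembly factors, which build complex I without staying in it, held the largest CTCF changes in both directions. NDUFAF3 interval 1 (chr3:49020276-49021071) holds an untranslated first exon and lies next to the interval of the main start, and both are shared with DALRD3. Its CTCF counts were 18 and 13 with vehicle and 110 and 91 with sorbitol, or 2.79 and 3.08 CPM against 56.9 and 44.6 CPM. It rose by 4.11 on the log2 scale (SE 0.28, edgeR adjusted p = 1.02e-10), while the main NDUFAF3 interval rose by 0.41 ± 0.16 from a vehicle level of 53.1 ± 8.53 CPM (SD, n = 2).

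NDUFAF6, at chr8:95024616-95025445, fell by 2.14 on the log2 scale (SE 0.37, edgeR adjusted p = 9.49e-05). Its CTCF levels were 18.5 and 19.6 CPM with vehicle and 4.14 and 4.42 CPM with sorbitol. NDUFAF4 fell by 1.25 on that scale (SE 0.24), from 37.4 and 37.9 CPM to 11.9 and 19.6 CPM. In both genes the vehicle libraries were nearly equal and both sorbitol libraries lay below them. NDUFAF8 rose by 1.39 ± 0.19.

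**Figure D3:**
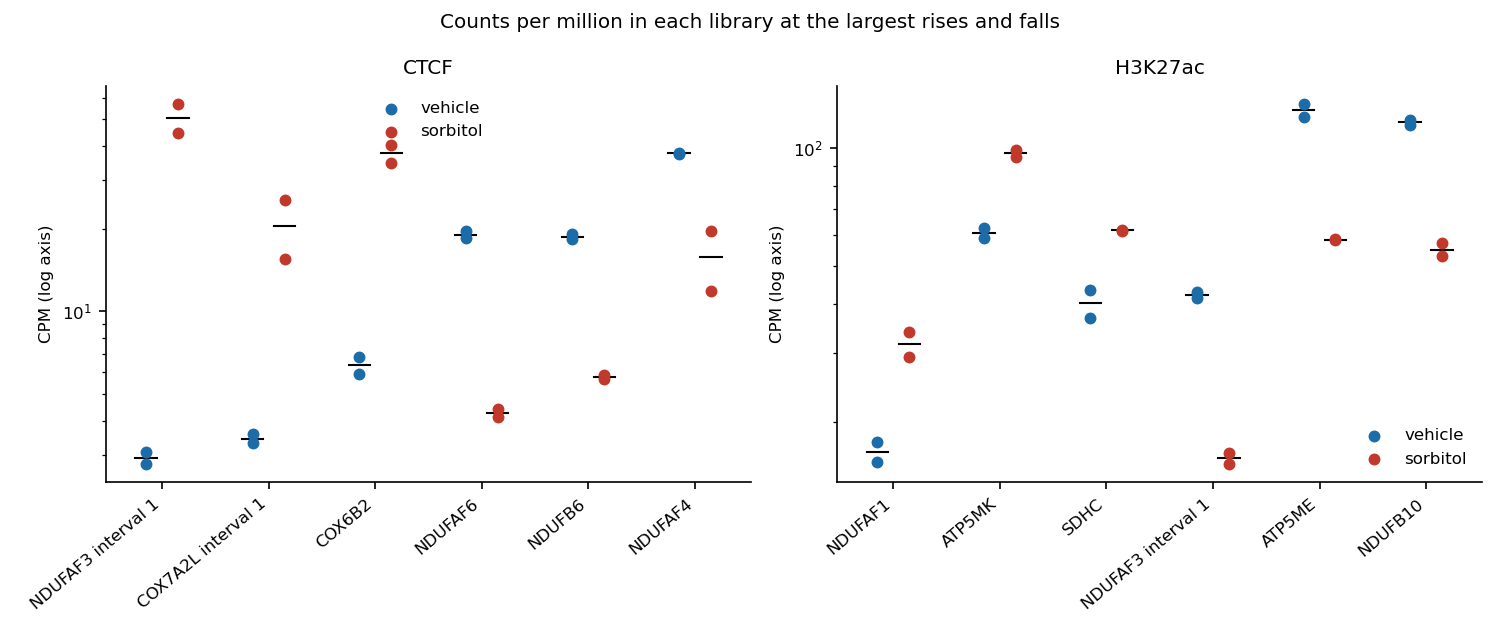
CPM (log axis) in each library at the 3 largest rises and 3 largest falls among the members, for CTCF on the left and H3K27ac on the right. Points are libraries, blue for vehicle and red for sorbitol, and short lines are means of 2; vehicle and sorbitol points do not overlap at any of the 12, by the rule that chose them.

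In complex II, 1 of 4 members was called in CTCF. SDHB, the iron-sulphur subunit of succinate dehydrogenase, rose by 0.83 ± 0.30, from 14.9 and 9.93 CPM to 29.0 and 16.2 CPM. The groups did not overlap, but the second sorbitol library lay close to the first vehicle library. The call was lost without the first sorbitol library (0.36), without the second vehicle library (0.59) and in DESeq2. SDHA (-0.25 ± 0.26), SDHC (0.23 ± 0.50) and SDHD (-0.45 ± 0.61) were not called.

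In complex III, UQCR11, a small subunit, was the 1 of 8 tested members called in CTCF and fell by 0.75 on the log2 scale (SE 0.23, edgeR adjusted p = 0.0116). The core subunits UQCRC1 (0.11 ± 0.28) and UQCRC2 (0.20 ± 0.32) and the Rieske iron-sulphur protein UQCRFS1 (1.32 ± 0.59) were not called.

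In complex IV, 5 of 14 tested members rose in CTCF and none fell. COX7A2L, also called SCAF1, joins complexes III and IV into a supercomplex. Its interval 1 (chr2:42359219-42359616) covers a noncoding exon 422 bp from an annotated start and had 3.57 and 3.31 CPM with vehicle and 15.5 and 25.5 CPM with sorbitol. It rose by 2.56 ± 0.38 (edgeR adjusted p = 1.68e-05), a call not made in every alternative run. The interval at the gene's main start had a log2 fold change of -0.71 ± 0.34 and was not called. COX6B2 rose by 2.54 ± 0.27, from 6.83 and 5.91 CPM to 40.4 and 34.8 CPM. COX5A, a core-bound nuclear subunit, rose by 0.98 ± 0.26, from 14.4 and 11.8 CPM to 27.4 and 25.02 CPM, and this call was lost without the second vehicle library (adjusted p = 0.0573). COX4I1 (0.95 ± 0.44) and COX5B (1.06 ± 0.43) were not called.

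ATP synthase had the highest share of CTCF rises of the complexes with at least 10 tested members. Of 19 tested, 11 rose and none fell, with a median log2 fold change of 0.77, against 10 and 3 of 36 complex I subunits. Of other promoter intervals 30.5% were called higher, and at cytosolic ribosomal protein genes 50 of 94 rose. The difference between complexes was not tested. Of the 11 rises, that of ATP5PD alone was called in every alternative run. ATP5PD, the d subunit of the peripheral stalk, had 13.7 and 10.9 CPM with vehicle and 39.3 and 41.2 CPM with sorbitol (1.69 ± 0.23, edgeR adjusted p = 5.67e-06). ATP5PB and ATP5PF, also of the stalk, rose by 1.18 and 0.77, and ATP5MC1, a c subunit of the rotor, by 1.11.

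ATP5F1A (0.18 ± 0.61) and ATP5F1B (-0.04 ± 0.31), the alpha and beta subunits of the F1 head, were not called, and ATP5F1C, the central shaft, rose by 1.23 ± 0.47 (edgeR adjusted p = 0.0407), a call lost without the second vehicle (0.81) or the first sorbitol library (1.12), and in DESeq2. ATP5F1D interval 2, which holds an exact CTCF consensus match, had the highest vehicle level and rose by 0.60 ± 0.22, from 22.04 and 19.6 CPM to 31.6 and 31.9 CPM. That call was lost without any 1 of the 4 libraries (adjusted p from 0.0625 to 0.207), and the sign turned with GC-corrected offsets (-0.19).

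**Figure D4:**
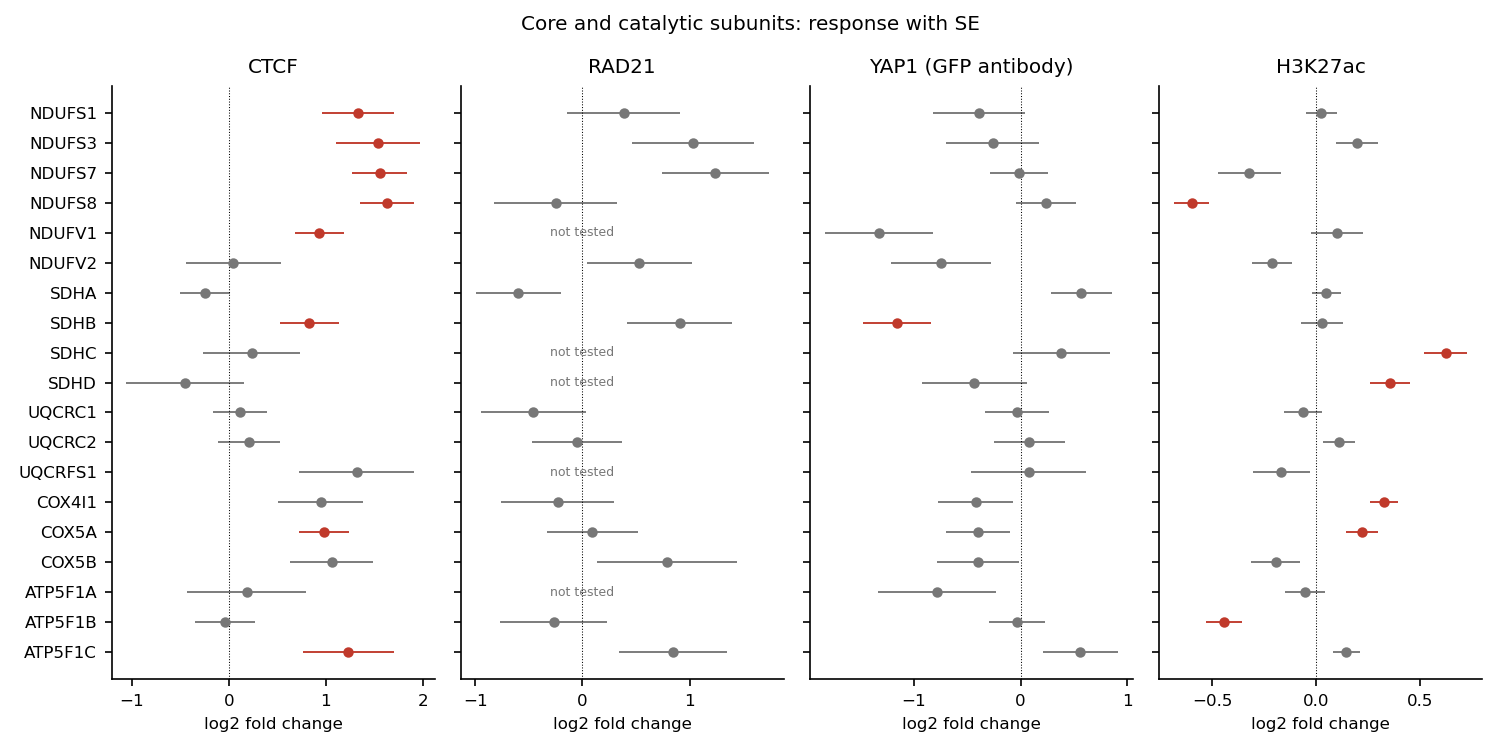
Log2 fold change with its SE (bars) for the main interval of 19 core and catalytic subunits in the 4 targets. Red marks an adjusted p under 0.05 and grey the rest; in CTCF the called genes all lie above 0, while in H3K27ac 4 lie above and 2 (NDUFS8 and ATP5F1B) below.

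In H3K27ac the members split nearly evenly. Of 116 tested, 22 rose and 24 fell, with a median log2 fold change of -0.04. Of 19341 other promoter intervals tested, 10.7% were called higher and 28.1% lower (38.8% in either direction), with a median of -0.13, and over all 56601 intervals 23.1% were called (8.59% higher and 14.5% lower). The share of members called was 39.7%. The difference in medians, members minus other promoters, was 0.09, and it was 0.11 both from the first library of each group alone and from the second. The rises ranged from 0.22 to 0.92 and the falls from -0.26 to -1.38.

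Scaled to total counts the H3K27ac split was 37 higher and 19 lower, on the weakest 25% of intervals 7 and 51, and with GC-corrected offsets 36 and 20. With GC-corrected offsets the difference in medians became -0.02. Of the 22 rises and 24 falls, 7 and 12 were called in every alternative run.

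The H3K27ac falls were found both at starts and beside them, and the rises at starts. Of the 96 tested members holding a start, 22 rose and 16 fell (median 0.02), and of the 20 beside one, none rose and 8 fell (median -0.40). At other promoters the intervals beside a start had 271 higher and 981 lower of 5045, with a median of -0.14. The split was chosen after the values were seen, and the intervals beside a start had lower levels, at a median of 28.2 against 47.95 CPM per kb with vehicle.

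Complex I subunits had 9 rises and 6 falls of 46 in H3K27ac. NDUFB10, an accessory subunit, had 115 and 118 CPM with vehicle and 53.1 and 57.2 CPM with sorbitol, and fell by 1.08 on the log2 scale (SE 0.08, edgeR adjusted p = 4.68e-13). NDUFS8 was the called core subunit, with 94.5 and 99.4 CPM against 68.6 and 59.1 CPM, and fell by 0.60 (SE 0.09). NDUFB3 rose by 0.57 ± 0.08, from 64.5 and 64.2 CPM to 98.8 and 92.0 CPM, and NDUFC1 by 0.45 ± 0.07. The core subunits NDUFS1, NDUFS3, NDUFS7, NDUFV1 and NDUFV2 had log2 fold changes between -0.32 and 0.20 and were not called.

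The assembly factors again held the largest H3K27ac rise and the largest fall. NDUFAF1, which acts on an early intermediate of complex I, had 15.8 and 17.8 CPM with vehicle and 34.0 and 29.3 CPM with sorbitol (0.92 ± 0.15, edgeR adjusted p = 1.54e-05). NDUFAF3 interval 1 had 41.4 and 43.0 CPM against 16.6 and 15.7 CPM, and fell by 1.38 (SE 0.14, edgeR adjusted p = 4.66e-10). The main NDUFAF3 interval fell by 1.08 (SE 0.08), from 146 and 139 CPM to 64.1 and 70.6 CPM. NDUFAF7 rose by 0.46 ± 0.08.

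In complex II, SDHC and SDHD, the membrane anchors, rose in H3K27ac and SDHA (0.05 ± 0.07) and SDHB (0.03 ± 0.10) were not called. SDHC had 43.5 and 36.8 CPM with vehicle and 62.0 and 61.6 CPM with sorbitol (0.62 ± 0.10, edgeR adjusted p = 1.48e-05). SDHD, which shares its interval with TIMM8B, rose by 0.35 ± 0.10, and the call was lost without the second vehicle (0.19) or the first sorbitol library (0.30). In complex III, UQCRH fell by 0.33 (SE 0.05) and UQCRFS1 interval 1, in an intron, by 0.73 (SE 0.23), while the main intervals of UQCRC1, UQCRC2 and UQCRFS1 were not called.

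Complex IV had 5 rises and 5 falls of 20. COX7A2 rose by 0.60 ± 0.11, from 38.5 and 34.7 CPM to 53.9 and 57.0 CPM. COX4I1, the nuclear subunit that binds the catalytic core, rose by 0.33 ± 0.07, from 131 and 144 CPM to 170 and 175 CPM. COX6B2 fell by 0.96 (SE 0.18), COX7C by 0.56 (SE 0.12) and NDUFA4, now counted as a complex IV subunit, by 0.46 (SE 0.08). COX5A rose by 0.22 ± 0.08 (edgeR adjusted p = 0.0340), a call lost without any 1 of the 4 libraries (adjusted p from 0.0619 to 0.140).

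ATP synthase had 3 rises and 8 falls of 22. ATP5ME, the e subunit, shares its interval with MYL5 and had 120 and 130 CPM with vehicle and 58.3 and 58.5 CPM with sorbitol. It fell by 1.10 on the log2 scale (SE 0.08, edgeR adjusted p = 1.88e-13). ATP5PF, which shares its interval with GABPA, fell by 0.81 (SE 0.07), from 214 and 203 CPM to 117 and 120 CPM. The catalytic subunit ATP5F1B fell by 0.44 (SE 0.09), from 82.4 and 94.8 CPM to 63.7 and 66.6 CPM. ATP5MK, a small membrane subunit, rose by 0.68 ± 0.08, from 62.7 and 59.0 CPM to 95.2 and 99.3 CPM, and shares its interval with PDCD11.

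RAD21 and YAP1 gave few calls at these promoters. In RAD21 none of the 68 tested members was called by edgeR, 9 had an unadjusted p under 0.05, and DESeq2 called 0. The background was 3.15% of the 9593 other promoter intervals tested (2.78% higher and 0.365% lower) and 4.79% of all 17011 (3.34% and 1.45%). The median was 0.26 for members and 0.21 for other promoters. That difference of 0.0498 became 0.2613 with GC-corrected offsets and 0.4493 over intervals averaging 50 counts or more. Leaving out 1 library gave up to 5 rises (without the second sorbitol library), and RAD21 had the fewest counts. NDUFAF3 interval 1, with 5.84 and 7.09 CPM against 19.7 and 21.6 CPM, had a log2 fold change of 1.69 ± 0.50 (edgeR adjusted p = 0.0697). COX6B2 had 13.9 and 6.20 CPM against 30.6 and 28.4 CPM (1.45 ± 0.46, edgeR adjusted p = 0.0875).

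In YAP1, 1 of 98 tested members rose and 1 fell (2.04%, with 16 at an unadjusted p under 0.05), against 3.76% of the 13604 other promoter intervals tested (2.47% higher and 1.29% lower) and 6.83% of all 22765 (5.34% and 1.49%). COX7A2L interval 1 had 27.6 and 28.2 CPM with vehicle and 55.4 and 72.8 CPM with sorbitol, and rose by 1.18 ± 0.21 (edgeR adjusted p = 0.000758). SDHB had 24.5 and 20.5 CPM against 11.3 and 8.46 CPM, and fell by 1.16 (SE 0.32, edgeR adjusted p = 0.0326). Neither gene's groups overlapped. Without the first vehicle library both calls were lost (edgeR adjusted p of 0.0628 and 0.445), SDHB's also without the second (0.155), and DESeq2 did not call SDHB. COX7A2L interval 1 lies near a start of a noncoding transcript and leaves the set when those starts are not used. Scaled to total counts, which lowers the median of all YAP1 intervals from -0.04 to -1.46, 77 members were called lower and none higher.

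The responses of CTCF and H3K27ac at the same interval were compared with an interaction term over 8 libraries. The count filter was applied over all 8 libraries. Alone, CTCF passed it at 91 members and H3K27ac at 116, so some members were tested here with few CTCF counts. Of 116 members tested, 10 had a higher response in H3K27ac and 22 a lower one (27.6%), against 29.7% of 19848 other promoter intervals (9.1% higher and 20.6% lower) and 21.6% of all 66550 (12.3% and 9.3%). The split was 34 and 8 scaled to total counts, 3 and 58 scaled on the weakest 25% of intervals, and 16 and 11 with GC-corrected offsets. The largest difference was at NDUFAF3 interval 1, at -5.14 ± 0.32 (edgeR adjusted p = 5.26e-24), where CTCF rose and H3K27ac fell. COX6B2 (-3.14 ± 0.34), COX7A2L interval 1 (-2.66 ± 0.44), NDUFB10 (-2.10 ± 0.19) and NDUFS8 (-1.88 ± 0.27) differed in the same sense. In the opposite sense stood NDUFAF6 (2.72 ± 0.38, edgeR adjusted p = 2.48e-08), NDUFB6 (2.06 ± 0.35) and NDUFAF4 (1.96 ± 0.25). ATP5F1E interval 1 (-3.28 ± 1.05) and NDUFA12 (2.06 ± 0.77) were also called, with at most 6 CTCF counts in any library at the first and 4 and 0 with sorbitol at the second.

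**Figure D5:**
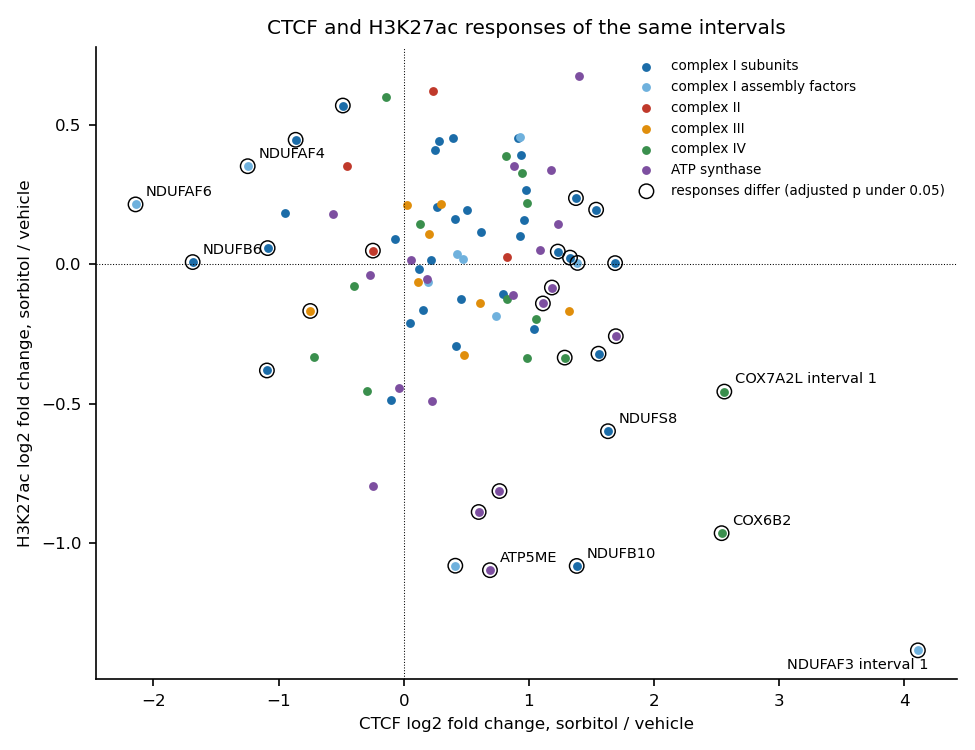
CTCF log2 fold change (horizontal) against H3K27ac log2 fold change (vertical), sorbitol over vehicle, for the 91 members tested in both, coloured by complex. Rings mark intervals whose responses differ with an adjusted p under 0.05; NDUFAF3 interval 1 lies at 4.11 and -1.38, and NDUFAF6 at -2.14 and 0.21.

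Of the 91 members tested in both targets, 19 (20.9%) were called in both. The directions were opposite in 11 of the 19 (57.9%), of which 10 were higher in CTCF and lower in H3K27ac, and 7 rose in both (ATP5MJ, ATP5MK, ATP5PB, both NDUFV3 intervals, COX5A and COX6A1). NDUFB2 fell in both. At other promoter intervals 19.6% were called in both and 82.7% of those were opposite. The difference between these shares was not tested. The 2 targets share no libraries, but the directions depended on the scaling of each. Scaled to total counts, CTCF had 5 members higher and 26 lower, and H3K27ac 37 and 19. The overlap was not counted under that scaling.

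RAD21 and CTCF responses differed at 1 of 98 members (1.02%), against 0.639% of 15640 other promoter intervals (0.0639% higher and 0.575% lower) and 0.83% of all 42641 (0.127% and 0.704%). The interval was NDUFAF3 interval 1, where the RAD21 log2 fold change minus that of CTCF was -2.28 (edgeR adjusted p = 0.0455). The call was lost on leaving out any 1 of the 8 libraries (adjusted p from 0.0585 to 0.195).

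Members within 1 kb of the start of a protein-coding gene outside the rule were set beside the members with no such start. Starts of noncoding genes were not counted. Among the 43 shared members tested in CTCF, 15 rose and 1 fell (median 0.62), and among the 48 others 15 rose and 5 fell (median 0.24). In H3K27ac the shared members had a median vehicle level of 52.7 CPM per kb and the others 36.1. The 2 groups were not matched for holding a start, and members beside a start had lower levels (28.2 against 47.95 CPM per kb). In the central 500 bp, 28 members had an ETS match. They had 9 rises and 2 falls of 25 tested in CTCF and 9 rises and 5 falls of 28 in H3K27ac. The 89 without one in that window had 21 and 4 of 66 in CTCF and 13 and 19 of 88 in H3K27ac. These 89 include NDUFAF4 and SDHB, whose ETS match printed above lies outside that window. Other promoters were called higher and lower in 30.5% and 8.78% of cases in CTCF and in 10.7% and 28.1% in H3K27ac, and the differences were not tested. The 10 with an NRF1 match in the central 500 bp had 4 rises and 1 fall of 9 in CTCF. NDUFS7, NDUFS8, ATP5F1C and ATP5PF were the rises and NDUFAF6 the fall. In H3K27ac the 10 had 1 rise and 2 falls. Not counted among them are ATP5ME, ATP5MC2, COX6A1 and NDUFB4. Their NRF1 match in the 250 bases before the RefSeq start lies outside that window. Across members, GC content and CTCF log2 fold change had a Pearson correlation of 0.14 (n = 91, intervals of the same libraries), and across other promoters 0.37.

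The share of all protein-coding promoter counts that lay in the 117 intervals went in H3K27ac from 0.895% ± 0.0007 with vehicle to 0.971% ± 0.0015 with sorbitol (SD, n = 2). In CTCF it went from 0.344% ± 0.0455 to 0.207% ± 0.00615, in RAD21 from 0.220% ± 0.0633 to 0.162% ± 0.00127 and in YAP1 from 0.293% ± 0.0075 to 0.102% ± 0.0179. These shares are given with no test. The promoter counts include mitochondrial genes and a few other very high intervals, which took 38.5% to 88.1% of them in CTCF, RAD21 and YAP1 and 2.97% to 3.15% in H3K27ac. Without these, the mean shares were 0.606% and 0.640% in CTCF and 0.665% and 0.690% in RAD21. They were 0.773% and 0.739% in YAP1 and 0.924% and 1.00% in H3K27ac. The direction of the means thus turned in CTCF and RAD21. In RAD21 both sorbitol libraries (0.6961% and 0.6834%) lay between the vehicle libraries (0.7048% and 0.6258%), so no direction can be read there.

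Other nuclear genes of the pathway, a list of 57 assembly factors, cytochrome c genes and complex-specific chaperones, had 75 promoter intervals. In CTCF, 18 rose and 6 fell of 60 tested, where 39.2% of other promoters and 40.2% of all intervals were called. CYCS, cytochrome c itself, rose by 1.05 ± 0.28, SCO1, a copper chaperone of complex IV, by 1.47 ± 0.39, and FOXRED1, a complex I assembly factor, by 1.59 ± 0.40. BCS1L, which inserts the Rieske protein into complex III, fell by 1.32 (SE 0.32), and COX17, another copper chaperone, by 1.76 (SE 0.68). In H3K27ac, 19 rose and 16 fell of 75, where 10.7% and 28.1% of other promoters were called higher and lower. BCS1L rose there by 0.51 ± 0.08, and CYC1, cytochrome c1 of complex III, fell by 0.47 (SE 0.09). None of this list was called in RAD21 (45 tested) or YAP1 (60 tested) by edgeR, with 8 and 11 at an unadjusted p under 0.05.

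A list of 12 regulators of respiratory genes had 14 intervals, with 7 rises and 1 fall of 12 tested in CTCF and 4 rises and 3 falls of 14 in H3K27ac. The shares of other promoters called higher and lower were 30.5% and 8.78% in CTCF and 10.7% and 28.1% in H3K27ac, and the difference was not tested. TFAM, which packages mitochondrial DNA and takes part in starting its transcription, fell in CTCF by 1.03 (SE 0.27) and rose in H3K27ac by 0.22 ± 0.08. TFB2M, a mitochondrial transcription factor, rose in H3K27ac by 0.67 ± 0.09, and POLRMT, the mitochondrial RNA polymerase, fell by 0.60 (SE 0.12). ESRRA, a nuclear receptor that drives respiratory genes, fell in H3K27ac by 0.82 (SE 0.08). GABPA is counted here through the interval it shares with ATP5PF. None of the 14 was called in RAD21 or YAP1 by edgeR, with 2 and 1 at an unadjusted p under 0.05.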

How the data were processed

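The deposited file holds raw counts for intervals shared by all libraries, 1 column per library. The submitters' processing notes name Trim Galore, FastQC, BWA 0.7.17, SAMtools, Picard, MACS2 2.2.6, bedtools 2.31.1 and hg38, with no role or order; how the authors merged intervals is not given in the sources used here. All intervals fit hg38, and GENCODE release 44 supplied transcript starts.

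Counts were fitted per target on 4 libraries with edgeR 4.0.16 (R 4.3.3; TMM, robust quasi-likelihood, filterByExpr with a minimum of 10), and response differences on 8. The script was tested on simulated data. Intervals that share a start were kept. Levels are CPM on effective library sizes, means ± SD over 2 libraries. DESeq2 1.42.0 (with a local dispersion trend for H3K27ac, where its parametric trend was at the edge of convergence), other scalings, filters, GC-corrected offsets, start windows, a replicate block and left-out libraries were alternatives.

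Named intervals are 20 core subunits (1 is not reported here), the 3 largest called rises and falls per target, the 2 highest and lowest vehicle levels, and the 2 largest called response differences each way; others appear as examples. Members and lists were chosen with earlier results of these data known. Replicates differed beyond counting noise (chi-square per degree of freedom 1.88 to 4.38). Intervals of counts cover counting error only, and low counts limit CTCF, RAD21 and YAP1 most.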

Additional observations from a re-analysis of the deposited data

Results flagged for a closer look

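A difference between targets in the response to sorbitol, tested with edgeR's interaction term, singled out the following results. Responses of H3K27ac and CTCF differed at 32 of the 116 members tested, and those of RAD21 and CTCF at 1. In CTCF alone, 91 members passed the count filter. The H3K27ac minus CTCF difference in log2 fold change was -5.14 at NDUFAF3 interval 1, -3.28 at ATP5F1E interval 1, 2.72 at NDUFAF6 and 2.06 at NDUFA12. The RAD21 minus CTCF difference at NDUFAF3 interval 1 was -2.28. At NDUFA12 the difference ranged from 0.96 to 7.83 when 1 library was left out, and it was not called in 6 of those 8 fits; without the first CTCF sorbitol library the CTCF sorbitol group has 0 counts there. At ATP5F1E interval 1 the call was lost without the first CTCF vehicle (-2.75) or the first CTCF sorbitol library (-2.37).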

How the results depend on the processing

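Counts and medians depended most on scaling, and the causes of the shifts were not tested. Among the named intervals, 475 comparisons with an alternative kept direction and call, 81 lost the call and 8 reversed. Among the main counts, differences in medians and shares, 171 comparisons stayed near the reported value, 85 moved away from it and 2 reversed. Scaled to total counts, CTCF had 5 members higher and 26 lower, YAP1 0 and 77, H3K27ac 37 higher, and RAD21 minus CTCF 0, and SDHB (-0.16), NDUFV1 (-0.0506), COX5A (-0.0033) and ATP5F1D interval 2 (-0.38) in CTCF and COX7A2L interval 1 in YAP1 (-0.26) reversed. Scaled on the weakest 25% of intervals, RAD21 had 5 higher, YAP1 3 lower, H3K27ac 7 higher and 51 lower and H3K27ac minus CTCF 61, and COX5A in H3K27ac reversed (-0.0217). DESeq2 gave 0 lower in YAP1, and 15 higher and 20 lower in H3K27ac, and its size factors gave 0 for RAD21 minus CTCF. Without a count filter, YAP1 had 8 lower. With a mean of at least 50 counts, CTCF had 12 higher, H3K27ac 37 higher and RAD21 minus CTCF 0. GC-corrected offsets gave 18 higher and 10 lower in CTCF and 36 higher in H3K27ac, with ATP5F1D interval 2 at -0.19. With starts of protein-coding transcripts only, YAP1 had 0 higher.

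The difference in medians, members minus other promoters, was 0.0004 in CTCF, 0.0498 in RAD21, -0.0274 in YAP1 and 0.0885 in H3K27ac. It became -0.0169 (CTCF) and -0.1501 (YAP1) without a count filter. Over intervals averaging 50 counts or more, it was 0.0642, 0.4493, 0.0428 and 0.1267 in that order of targets. GC-corrected offsets gave 0.3713 in CTCF, 0.2613 in RAD21 and -0.0193 in H3K27ac. Starts within 500 bp gave -0.0326 in CTCF and 0.1387 in H3K27ac, and protein-coding transcripts only gave -0.0580 in CTCF, -0.0770 in YAP1 and 0.1013 in H3K27ac. The difference in share of counts in H3K27ac was 0.0790 and 0.0680 percentage points under these windows.

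Same-numbered libraries of a target did not deviate together (correlations -0.0086, -0.0048, 0.0054 and -0.0054), so the numbers were not taken to pair them. A replicate block gave 28 higher and 6 lower in CTCF, with a difference in medians of 0.0201, 22 and 25 in H3K27ac, 31 for H3K27ac minus CTCF and 0 for RAD21 minus CTCF. The replicate block with GC-corrected offsets gave 15 and 10 in CTCF, 36 higher in H3K27ac, differences in medians of 0.2988 (CTCF), 0.2709 (RAD21), 0.0016 (YAP1) and -0.0190 (H3K27ac), and ATP5F1D interval 2 at -0.18.

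Of the alternatives chosen after seeing the data, total counts without the dominant intervals gave 19 higher in CTCF, 4 lower in YAP1, 37 higher in H3K27ac and 0 for RAD21 minus CTCF. The differences in share without those intervals were 0.0341 (CTCF) and 0.0245 (RAD21), both reversed, and -0.0340 (YAP1) percentage points. That of RAD21 lay within the spread of its vehicle libraries.

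Leaving out 1 library gave, in CTCF, 18 to 28 higher, 5 to 7 lower and a difference in medians of -0.0508 to 0.1575. The ranges were 0 to 5, 0 to 1 and -0.0198 to 0.1607 in RAD21, 0 to 2, 0 to 6 and -0.0849 to 0.0695 in YAP1, and 16 to 19, 20 to 22 and 0.1126 to 0.1269 in H3K27ac. CTCF had 18 higher without its second vehicle library, and RAD21 3 higher without its first vehicle library and 5 without its second sorbitol library. YAP1 had 6 lower without its first sorbitol library and 4 without its second. RAD21 minus CTCF had 0 to 2 and H3K27ac minus CTCF 25 to 34. The difference in share ranged from -0.1692 to -0.1047 in CTCF, -0.1021 to -0.0126 in RAD21, -0.2033 to -0.1781 in YAP1 and 0.0746 to 0.0767 in H3K27ac. Low counts limit RAD21 most, where 49 of 117 members were not tested.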
